A study of Homo sapiens with 4 samples.

Results

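The genes described here encode 6 chemokines of the CXC family that attract neutrophils: CXCL1, CXCL2, CXCL3, CXCL5, CXCL6 and CXCL8 (interleukin-8). They were taken as all probe sets on the array whose platform annotation names exactly 1 of these symbols, which gave 11 of 54613 probe sets and 6 of 19775 named genes. They were measured on 4 Affymetrix HG-U133 Plus 2.0 arrays of UM-UC-3 cells, a long-established line from a human bladder carcinoma. On 2 arrays the cells stably carried GFP alone, as the control, and on 2 they stably carried RhoGDI2 (the product of ARHGDIB) tagged with GFP; all cells had been sorted by flow cytometry for the transfected protein, and RNA was taken in log phase growth. The GFP cells were cotransfected with pBABE PURO for puromycin selection, per the labels. Preparations A and B were made at different times, each with 1 array of either line, and the series aimed to find genes that RhoGDI2 regulates. The description of the GFP-RhoGDI2 samples is that of the control, so their group was read from the title. No source used here says whether A and B were transfected separately, so what arose when a line was made cannot be told apart from the effect of the introduced gene.

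Chemokines of this group carry a short glutamate-leucine-arginine motif before the paired cysteines that give the CXC family its name. They bind the receptors CXCR1 and CXCR2 on neutrophils, and the genes lie side by side on chromosome 4. Epithelial and tumour cells make them in response to interleukin-1 and TNF, mainly through the transcription factor NF-kappaB, with AP-1 and C/EBP factors adding to the induction of CXCL8. Their messenger RNAs are short-lived, with decay factors such as the ZFP36 family shortening their life.

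The 4 genes CXCL1, CXCL8, CXCL3 and CXCL2 were higher in the GFP-RhoGDI2 line in both preparations, while CXCL6 and CXCL5 stayed at the low end of the scale on all arrays. Values are log2 expression per probe set. Probe sets were tested where their mean over the 4 arrays reached 4.637, the median of all probe set means; a value under that level is low and was not shown to be above background. Of the 6 genes, 4 were tested and 4 were called higher by limma with preparation as a block (adjusted p under 0.05), where 4.83% of all genes tested were called higher. Of the 11 probe sets, 5 were tested and 5 were called higher, beside 4.63% of all probe sets tested. The means of these 5 probe sets passed the filter level in the GFP group too, the lowest being 4.81 for CXCL3, so none was tested through its high group alone. With no filter, the median difference over all 6 genes was 1.81 on the log2 scale, against -0.02 over all 19775 genes.

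CXCL1, a chemokine first described as a melanoma growth factor, had the largest difference of the group. In GFP cells it read 5.80 in preparation A and 6.04 in B, and in GFP-RhoGDI2 cells 9.52 in A and 9.48 in B. Both GFP-RhoGDI2 arrays were high, and 3.44 log2 units separated the closest arrays of the groups. The difference was 3.58 (SE 0.109; limma, adjusted p = 1.64e-04), or 11.97-fold with a 95% interval of 9.92 to 14.4, and it was 13.2-fold in preparation A and 10.8-fold in B. Among all 12123 tested genes it ranked 11 by size of rise.

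CXCL8, the best-known attractant and activator of neutrophils, was read by 2 probe sets, and both showed the rise. The probe set 202859_x_at read 6.66 and 7.16 in GFP cells and 9.39 and 10.19 in GFP-RhoGDI2 cells, in the order A and B. The other, 211506_s_at, read 5.71 and 6.24 in GFP cells and 8.78 and 9.37 in GFP-RhoGDI2 cells. In neither did the groups overlap, and in both lines preparation B was the higher. The differences were 2.88 (SE 0.111, adjusted p = 2.92e-04 by limma) and 3.10 (SE 0.0927, adjusted p = 1.64e-04), or 7.36-fold and 8.55-fold. Identifiers ending in _x_at or _s_at can match more than 1 transcript, and no CXCL8 probe set lacks such an ending.

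CXCL3, a close relative of CXCL1 that acts on the same receptor, read 4.51 and 5.10 in GFP cells and 7.05 and 7.51 in GFP-RhoGDI2 cells. The GFP A value lies just under the filter level, so the GFP level may be near background and the size of the rise is uncertain. Both GFP-RhoGDI2 arrays stood above both GFP arrays, by at least 1.95. The difference was 2.47 (SE 0.0959; limma, adjusted p = 2.96e-04), which is 5.54-fold, with 5.80-fold in preparation A and 5.29-fold in B.

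CXCL2, the third close relative, gave different answers by probe set. On 209774_x_at it read 5.94 and 6.37 in GFP cells and 7.21 and 7.40 in GFP-RhoGDI2 cells. The groups did not overlap, and the difference was 1.15 (SE 0.105; limma, adjusted p = 0.00487), or 2.22-fold; leaving out GFP-RhoGDI2 array B, in a fit that has no block, ended the call (1.06, adjusted p = 0.0765). On 1569203_at it read 3.37 and 3.55 against 3.76 and 3.69, and on 230101_at 2.96 and 2.99 against 3.07 and 3.06. Both of these lie below the filter level on every array; they differed by 0.27 and 0.09, with 95% intervals of -0.01 to 0.55 and -0.16 to 0.35 in the fit with no filter (adjusted p = 0.321 and 0.739). The call for CXCL2 therefore rests on the probe set of the class that can match further transcripts. Whether transcripts of CXCL1 or CXCL3, which rose more, add to its reading was not tested.

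CXCL6, a relative of CXCL5 that binds both neutrophil receptors, read 3.31 and 3.21 in GFP cells and 3.87 and 3.83 in GFP-RhoGDI2 cells. The groups did not overlap, but all 4 values are under the filter level, so the gene was not tested; its difference was 0.59 and, in the fit with no filter, it passed the threshold (adjusted p = 0.0399). CXCL5, an epithelial neutrophil attractant, was read by 3 probe sets, which lay between 2.65 and 3.22 on all arrays. They differed by 0.18 (215101_s_at), -0.07 (214974_x_at) and -0.27 (207852_at), and with no filter each 95% interval held 0. In 214974_x_at the groups overlapped, and in 207852_at both GFP-RhoGDI2 arrays read lower. Across the 11 probe sets, 9 had both GFP-RhoGDI2 arrays above both GFP arrays, as did 20.0% of all probe sets on the array.

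**Figure D1:**
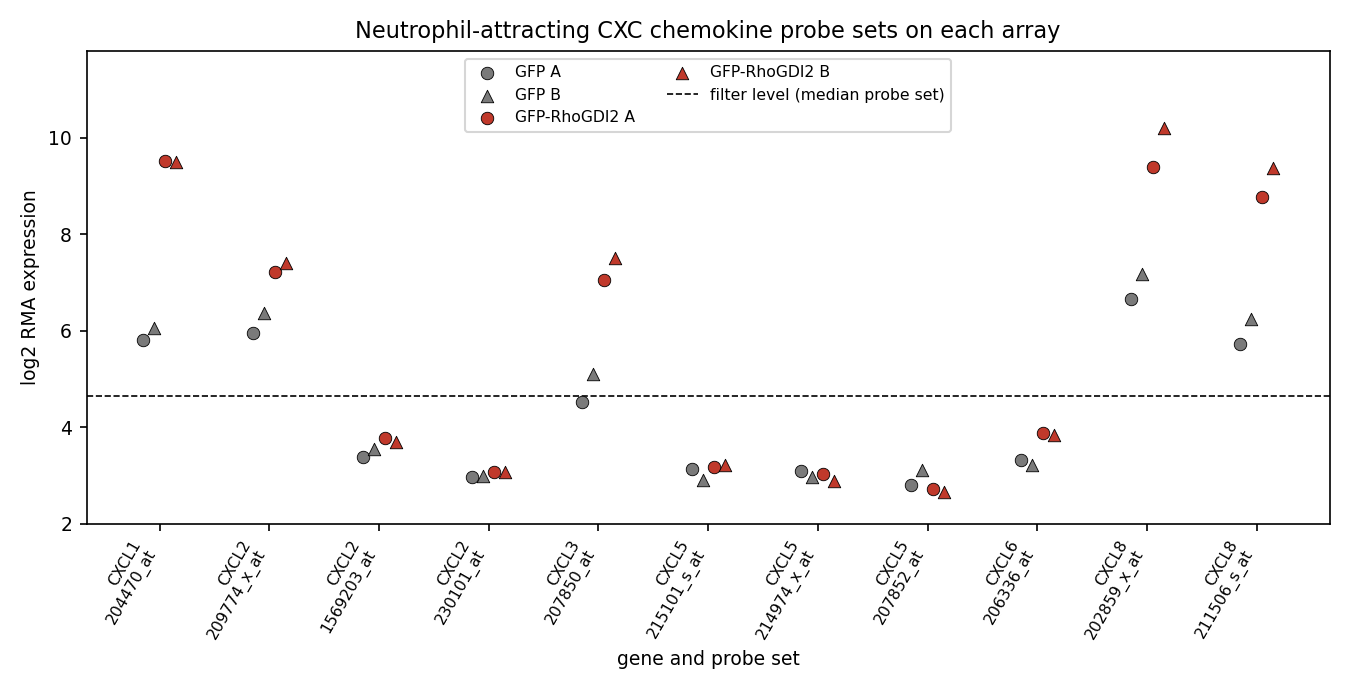
Log2 RMA expression (vertical axis) of the 11 chemokine probe sets (horizontal axis) on the GFP arrays (grey) and the GFP-RhoGDI2 arrays (red), with circles for preparation A, triangles for B and a dashed line at the filter level of 4.637. The probe sets of CXCL1, CXCL3 and CXCL8 and 209774_x_at of CXCL2 separate the lines most widely. The other 6 lie below the dashed line on all 4 arrays, and among them only 214974_x_at of CXCL5 has overlapping groups.

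Ordered by difference, the called genes ran CXCL1, CXCL8, CXCL3 and CXCL2. The 95% interval of CXCL1 was 3.31 to 3.85 and those of the CXCL8 probe sets were 2.61 to 3.15 and 2.87 to 3.33, so CXCL1 lay above 202859_x_at of CXCL8 and overlapped 211506_s_at at its lower end. CXCL3, at 2.23 to 2.71, overlapped the lower of the CXCL8 intervals. CXCL2, at 0.89 to 1.41, lay below all of them. Differences between genes were not tested, and probe sets differ in how fully they follow a change in RNA.

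The preparations shifted the members within a line as well. From A to B, CXCL8 (202859_x_at) differed by 0.50 in GFP and 0.80 in GFP-RhoGDI2 cells, and CXCL3 by 0.59 and 0.46. CXCL2 (209774_x_at) differed by 0.43 and 0.19. These 3 genes therefore read higher in B in both lines, whereas CXCL1 differed by 0.24 and -0.04. Over all probe sets tested, 90% of such A to B differences were within 0.35 in GFP and 0.34 in GFP-RhoGDI2 cells, and their medians were both -0.01. The gap between the lines was several times these shifts for CXCL1, CXCL3 and CXCL8, as the plot of differences by preparation shows.

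**Figure D2:**
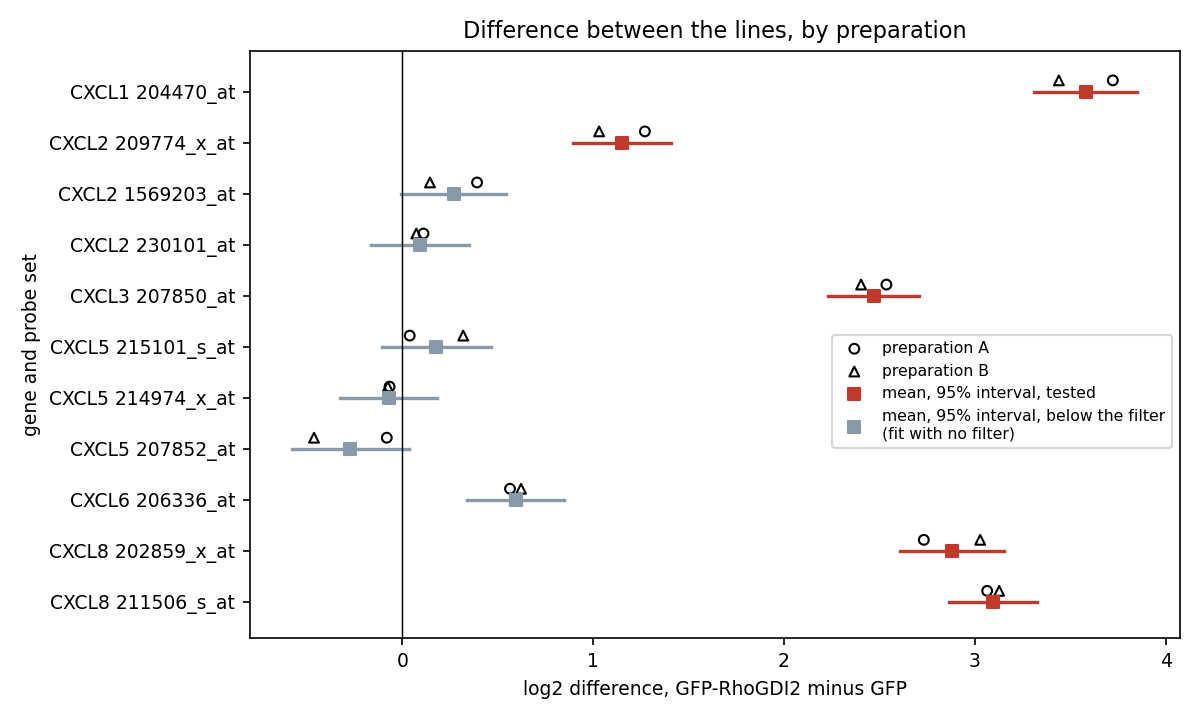
Log2 difference, GFP-RhoGDI2 minus GFP (horizontal axis), for each chemokine probe set (vertical axis): squares are means of both preparations with 95% intervals, from the test fit (red) or, for probe sets below the filter, from the fit with no filter (grey), and open symbols are the single preparations. The 5 red intervals, from CXCL2 at 1.15 to CXCL1 at 3.58, lie wholly above 0, and so does the grey interval of CXCL6 (0.34 to 0.85).

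The promoter sequences of the 6 genes are shown because they divide the members into families and share 1 element. All 6 were found in the RefSeq promoter table (GRCh38.p14), which holds 250 bases before and 50 after each gene's start; the 140 bases before the start are printed, 5′ to 3′ on the gene's strand. Capitals mark matches to GGNNTTTCC, a form of the NF-kappaB motif, and in CXCL8 also a match to TGANTCA, the AP-1 motif.
CXCL1: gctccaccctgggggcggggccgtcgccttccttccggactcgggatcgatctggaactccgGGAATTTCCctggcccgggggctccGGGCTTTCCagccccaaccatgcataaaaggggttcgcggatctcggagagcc
CXCL3: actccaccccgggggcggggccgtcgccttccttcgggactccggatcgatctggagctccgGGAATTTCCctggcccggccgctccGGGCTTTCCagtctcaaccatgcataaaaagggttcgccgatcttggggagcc
CXCL2: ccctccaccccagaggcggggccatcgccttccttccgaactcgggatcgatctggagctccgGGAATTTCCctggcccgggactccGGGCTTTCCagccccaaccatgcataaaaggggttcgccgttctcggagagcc
CXCL8: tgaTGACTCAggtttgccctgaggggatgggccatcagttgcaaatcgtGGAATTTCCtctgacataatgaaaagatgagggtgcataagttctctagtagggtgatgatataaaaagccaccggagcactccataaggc
CXCL6: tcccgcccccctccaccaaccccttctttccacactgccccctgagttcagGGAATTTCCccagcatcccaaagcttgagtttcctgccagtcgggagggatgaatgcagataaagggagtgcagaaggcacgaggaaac
CXCL5: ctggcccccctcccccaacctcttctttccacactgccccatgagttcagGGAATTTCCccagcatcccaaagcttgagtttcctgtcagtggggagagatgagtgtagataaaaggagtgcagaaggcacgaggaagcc

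These stretches lie at chr4:73869253-73869392 (plus strand) for CXCL1, chr4:74038690-74038829 (minus strand) for CXCL3, chr4:74099196-74099335 (minus strand) for CXCL2, chr4:73740429-73740568 (plus strand) for CXCL8, chr4:73836538-73836677 (plus strand) for CXCL6 and chr4:73998678-73998817 (minus strand) for CXCL5. Searched on both strands of the 300-base windows, GGNNTTTCC was present in 6 of 6 members and in 6.26% of 35116 RefSeq windows. Each member held it as GGAATTTCC, a form picked after the sequences were seen that 0.461% of all windows hold, starting at -78 in CXCL1 and CXCL3, -77 in CXCL2, -91 in CXCL8, -89 in CXCL6 and -90 in CXCL5. CXCL1, CXCL2 and CXCL3 held a further match, GGGCTTTCC, at -53. TGANTCA was found in CXCL8 alone, as TGACTCA at -137 (7.71% of all windows). TTGCNNAA, 1 form of the C/EBP motif, was found in CXCL2 alone, on the opposite strand at -188 (10.5% of all windows). Before its GGAATTTCC, the CXCL8 stretch holds TTGCAAAT, which misses the TTGCNNAA pattern by its last letter and was not counted. Other forms of the C/EBP motif were not searched. These are letter matches and say nothing of binding in these cells.

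Aligned over their whole windows, CXCL1 and CXCL3 were 82.5% identical, CXCL2 was 71.9% identical to CXCL1 and 73.8% to CXCL3, and CXCL5 and CXCL6 were 83.1% identical. The remaining pairs were at 45.2% to 55.4%. The members with a rise thus came from the CXCL1 to CXCL3 promoter family and from CXCL8, and those at low level from the CXCL5 and CXCL6 family. GGAATTTCC stands in the promoters of the called genes and in those of CXCL5 and CXCL6, which were not tested. Whether it bears on the difference between the lines was not tested.

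The genes neighbour each other on chromosome 4, in the RefSeq order (GRCh38.p14) CXCL8, CXCL6, PF4V1, CXCL1, PF4, PPBP, CXCL5, CXCL3 and CXCL2. High and low differences were mixed along this order, with the called CXCL3 and CXCL2 next to each other and CXCL8 and CXCL1 apart. Between the members lie the platelet chemokine genes PF4V1, PF4 and PPBP, which were below the filter level on all arrays and differed by 0.14, -0.03 and 0.03. Of 9 further tested genes among the 8 protein-coding neighbours on each side, 2 rose and 0 fell, where 4.83% of all tested genes were called higher and 3.35% lower. AFP, encoding the fetal serum protein alpha-fetoprotein, rose by 0.92 (limma, adjusted p = 0.00675), from a GFP level of 4.36 and 4.32 that is itself under the filter level. MTHFD2L, a mitochondrial folate enzyme gene next to CXCL2, read 7.83 and 7.72 in GFP and 8.48 and 8.46 in GFP-RhoGDI2 cells. It rose by 0.70 (adjusted p = 0.0159), but missed the threshold in fits with no block that left out GFP array B, GFP-RhoGDI2 array A or GFP-RhoGDI2 array B (adjusted p = 0.0556, 0.0858 and 0.0896). EREG, encoding the growth factor epiregulin, differed by 0.44 (adjusted p = 0.0936), PARM1 by 0.41 (adjusted p = 0.0711), and ANKRD17 and COX18, on the CXCL8 side, by -0.09 and -0.02.

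**Figure D3:**
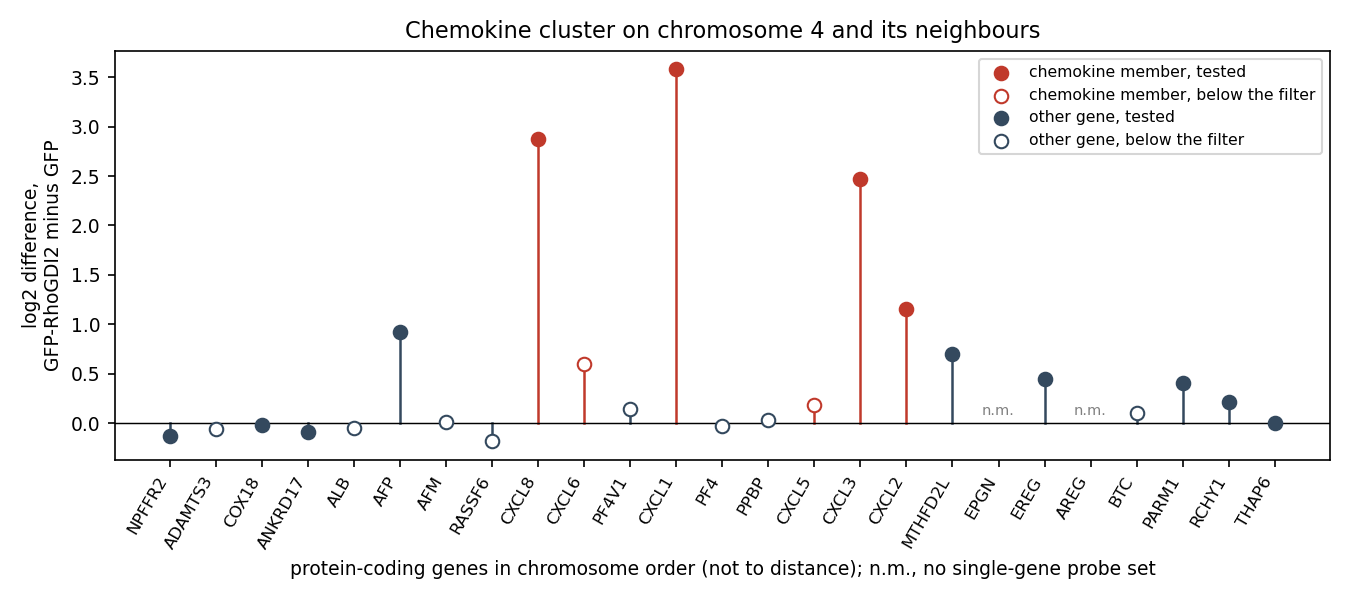
Log2 difference, GFP-RhoGDI2 minus GFP (vertical axis), of the measured genes among 25 protein-coding genes in chromosome order (horizontal axis, not to distance), with chemokine members in red, other genes in dark blue, filled points tested and open points below the filter. CXCL8 (2.88), CXCL1 (3.58) and CXCL3 (2.47) stand far above genes between and beside them.

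Other ligands of the family gave no call. Of 12 further CXC and CX3C ligand genes all had a probe set, but 10 were below the filter, among them the interferon-induced lymphocyte attractants CXCL9, CXCL10 and CXCL11. By limma 0 of the 2 tested were called, with 1 at an unadjusted p under 0.05. That was CXCL16, a ligand for T cells that is made as a membrane protein, which read 6.06 and 6.04 in GFP and 5.28 and 5.67 in GFP-RhoGDI2 cells. It was lower on both GFP-RhoGDI2 arrays (difference -0.58, limma, adjusted p = 0.0524). It passed with an intensity trend (adjusted p = 0.00641), with each array shifted to the same median (0.0159) and with a gene's probe sets averaged (0.00215).

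Among the receptors, 1 was called and 6 of 9 were below the filter level. CXCR2, the receptor that all 6 chemokines bind, read 2.89 and 3.03 in GFP cells and 3.02 and 2.89 in GFP-RhoGDI2 cells, so it was low in both. CXCR1, which binds CXCL8 and CXCL6, was tested and differed by 0.19 (limma, adjusted p = 0.26). Of the 9 receptor genes, 3 were tested, 1 rose and 0 fell, where 4.83% of all tested genes were called higher and 3.35% lower. The median difference was 0.52 over those 3, which is the value of ACKR2 (GFP mean 4.50, under the filter level), and 0.07 over all 9. The gene that rose was CXCR4, the receptor of CXCL12 and no receptor of the members, by 0.56 (adjusted p = 0.0409). That call was lost without the block (adjusted p = 0.0623), with no filter (0.0675) and without any 1 array (0.0700 to 0.239, with differences of 0.41 to 0.72). The size depends on the probe set: the call held and the difference was larger, at 1.83 without _s_at or _x_at probe sets (adjusted p = 0.00104) and at 0.97 with a gene's probe sets averaged (2.66e-05).

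Cytokines that induce these chemokines did not pass the test. Of 17 genes of inducing cytokines and their receptors with a probe set, 10 were tested; limma called 0, with 2 at an unadjusted p under 0.05 and a median difference of -0.02. IL1A and IL1B, the genes of interleukin-1, differed by -0.16 and 0.25 (adjusted p = 0.316 and 0.165), and TNF was below the filter level, with a difference of 0.01. TNFRSF1A, the main TNF receptor gene, had the largest difference of those tested (-0.36, adjusted p = 0.0885), and it passed as lower with the filter at the upper quartile (0.0202), with an intensity trend (0.00372) and with a gene's probe sets averaged (0.0124). IL1R1, the signalling receptor for interleukin-1, failed the filter with a mean of 4.41 and was singled out after its values were seen. It read 3.23 and 3.36 in GFP cells and 4.82 and 6.21 in GFP-RhoGDI2 cells. Both GFP-RhoGDI2 arrays were higher, with a spread of 1.40 between them; the difference was 1.58 in preparation A and 2.86 in B, and the fit with no filter gave an adjusted p of 0.00753.

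NF-kappaB genes, several of which are themselves induced by NF-kappaB, gave no call. All 15 with a probe set were tested, and limma called 0 of them, with 8 at an unadjusted p under 0.05. Among these 8, only IKBKB was higher, by 0.26 (limma, unadjusted p = 0.0345). Of the 15 differences 10 were below 0, with a median of -0.23, against -0.01 over all genes tested. The shares of all tested genes with such a p or with a difference below 0 were not counted, for this or the other lists. TRAF1, an adaptor of TNF receptors, had the largest difference. It read 6.85 and 6.81 in GFP and 5.90 and 6.45 in GFP-RhoGDI2 cells, a difference of -0.66 (limma, adjusted p = 0.0609). With GFP-RhoGDI2 array A or B left out and no block, the difference was -0.38 or -0.93. By limma TRAF1 passed as lower with an intensity trend (adjusted p = 0.00174) and with each array shifted to the same median (0.0168). It also passed with its probe sets averaged (difference -0.49, adjusted p = 0.00369). The feedback inhibitor genes NFKBIA and TNFAIP3, named after their values were seen, differed by -0.24 and -0.27 (adjusted p = 0.164 and 0.141 by limma). The subunit genes RELA and NFKB1 differed by 0.13 and -0.39 (adjusted p = 0.423 and 0.0711). Messenger RNA levels do not measure the activity of these proteins.

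AP-1 and C/EBP factors moved both ways. Of 12 tested, 2 rose and 1 fell, where 4.83% of all tested genes were called higher and 3.35% lower, and the median was -0.10. JUND, an AP-1 subunit, read 7.56 and 7.49 in GFP cells and 8.54 and 9.07 in GFP-RhoGDI2 cells, a rise of 1.28 (limma, adjusted p = 0.0118). This is an _s_at probe set, and with the gene's probe sets averaged the rise was 0.47 (adjusted p = 0.00257). FOSL2, which pairs with JUN proteins in AP-1, rose by 0.91 (adjusted p = 0.00692), or by 0.58 with its probe sets averaged (adjusted p = 5.55e-04). The FOSL2 call was lost with GFP-RhoGDI2 array A left out and no block (adjusted p = 0.0537). BATF3, another partner of JUN proteins, fell by 0.58 with the block (adjusted p = 0.031), a call lost without it (0.124) and without any 1 array (0.0818 to 0.399). JUN, FOSL1 and CEBPB, with values of 10.98 or more on every array, differed by 0.02, -0.19 and -0.01. Of 6 tested decay factor genes limma called 0, with 1 at an unadjusted p under 0.05: ZFP36, which encodes tristetraprolin, differed by -0.25 (adjusted p = 0.16; 0.0486 with a gene's probe sets averaged).

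**Figure D4:**
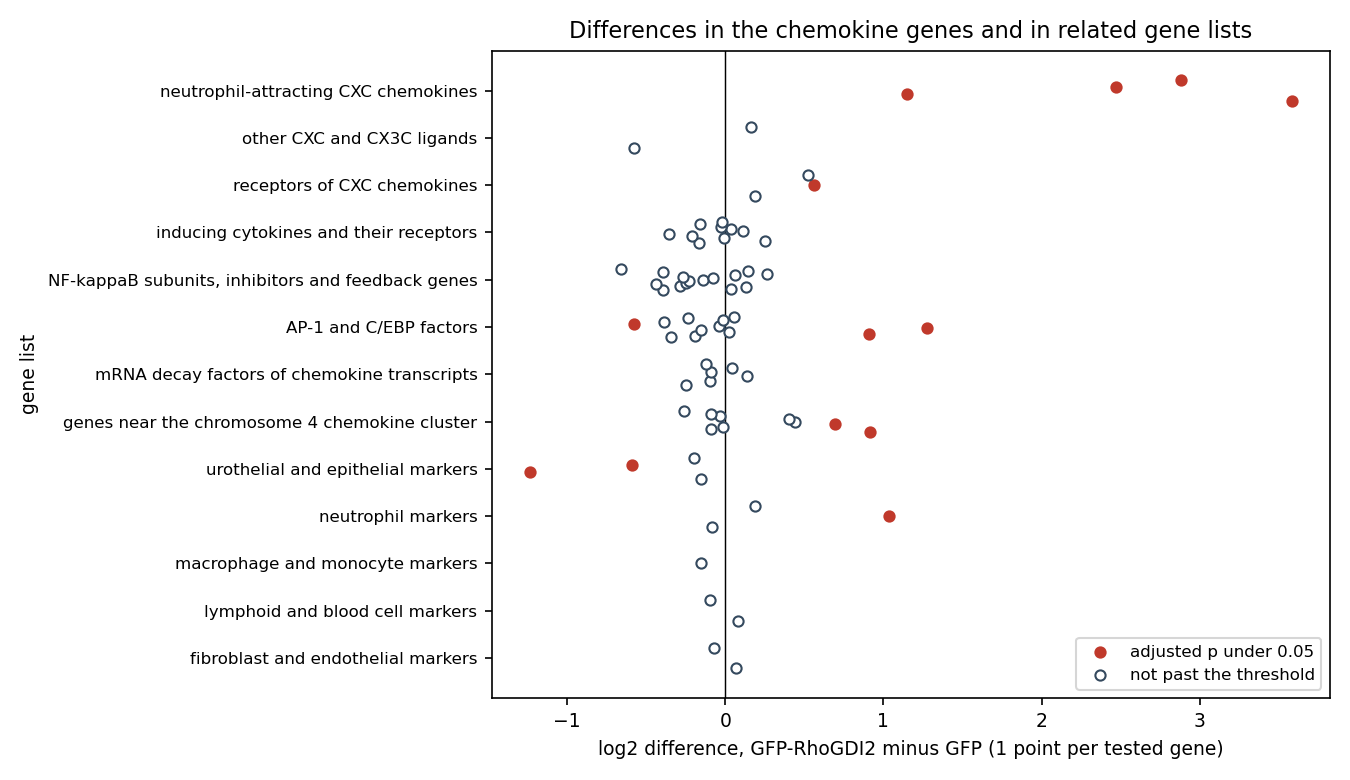
Log2 difference, GFP-RhoGDI2 minus GFP (horizontal axis), with 1 point per tested gene of each list (vertical axis), filled where the adjusted p is under 0.05. The 4 tested chemokine genes lie at 1.15 and above, and the 15 NF-kappaB genes between -0.66 and 0.26.

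The members' profiles over the 4 arrays were compared with those of all tested genes by the Euclidean distance between log2 values centred on each gene's own mean. The 5 genes nearest to CXCL8 were MYLK, the kinase gene of myosin light chain (distance 0.182), PID1 (0.195), PTGER4, the prostaglandin E2 receptor gene EP4 (0.283), the actin-regulating EPS8 (0.375) and RGS4, a regulator of G-protein signalling (0.405). Their differences ran from 2.83 for EPS8 to 3.07 for RGS4, and each also read higher in B in both lines. The 5 nearest to CXCL1 were STC1, encoding the secreted hormone stanniocalcin (0.366), the teneurin gene TENM2 (0.413), TRIM6 (0.443), the actin-binding ABLIM1 (0.468) and GRAMD2B (0.489). CXCL3 was at 0.479 from CXCL8 and 1.19 from CXCL1, and CXCL8 was at 0.935 from CXCL1. CXCL2 was farther from CXCL8 (1.78) and CXCL1 (2.44). Other genes lay nearer than fellow members. By distance from CXCL1, CXCL8 ranked 19, CXCL3 30 and CXCL2 120 among the tested genes, and from CXCL3, CXCL8 ranked 16. Over 4 arrays such a distance describes mainly the size of the rise and the A to B shift. PID1, RGS4, TRIM6, ABLIM1 and GRAMD2B lie under the filter level on both GFP arrays.

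**Figure D5:**
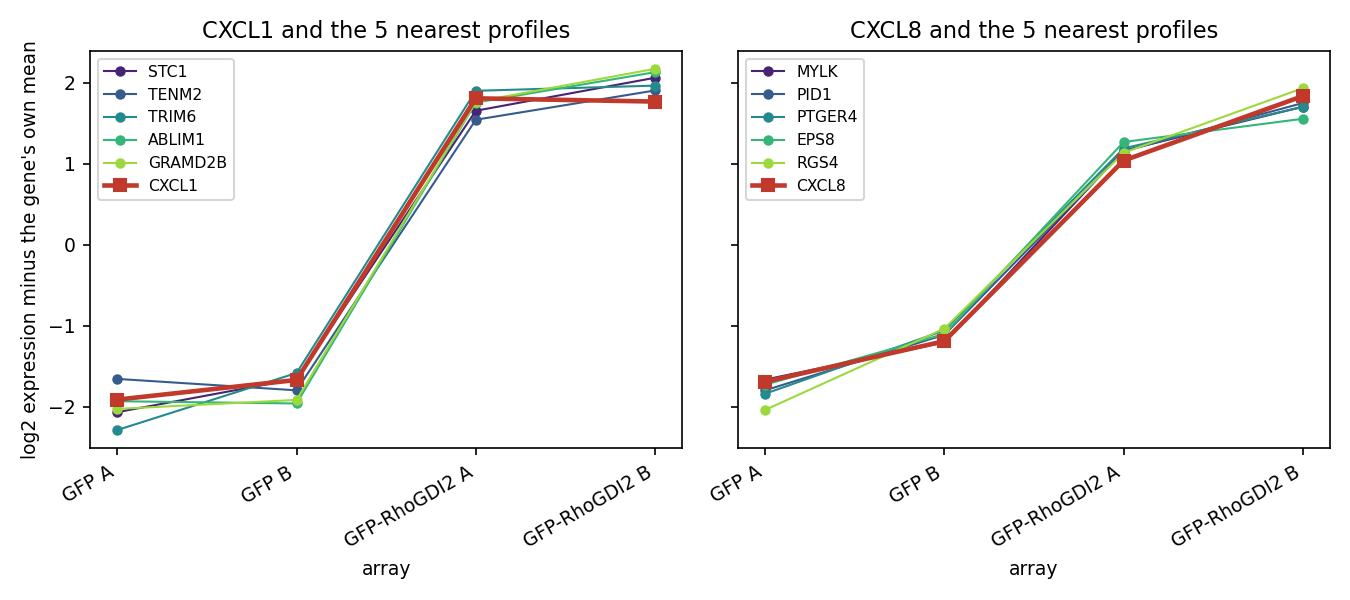
Log2 expression minus the gene's own mean (vertical axis) on the 4 arrays (horizontal axis) for CXCL1 and CXCL8 (thick red) and the 5 genes with the nearest profile to each (thin lines). CXCL8 and its neighbours read higher in preparation B than in A in both lines, while CXCL1 is level between the GFP-RhoGDI2 arrays.

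As a check of the introduced gene, the brightest probe set of ARHGDIB gave 6.51 and 6.27 in GFP and 11.94 and 11.58 in GFP-RhoGDI2 cells, a rise of 5.37. The other 2 probe sets of the gene differed by 0.94 (adjusted p = 0.00794 by limma) and -0.02 (adjusted p = 0.953, groups overlapping), and the 3 averaged differed by 2.10. Of 14 urothelial and epithelial markers, 10 were below the filter level, CDH1, EPCAM and the uroplakin genes among them. The 4 tested were KRT8 and KRT18, keratins of simple epithelium, with values from 8.39 to 13.61, and KRT7 and GATA3. KRT7 and GATA3 had lower means, of 6.12 and 5.29, and differed by -0.15 and -0.20 (limma, adjusted p = 0.53 and 0.428). The epithelial label thus rests on few of the listed markers. KRT8 fell by 1.23 and KRT18 by 0.59 (limma, adjusted p = 0.00278 and 0.0225; KRT18 kept its call without the block, 0.0248, and lost it when any 1 array was left out, 0.0721 to 0.118). UPK1A, a uroplakin gene with a mean below the filter, read 4.18 and 4.03 in GFP and 4.95 and 4.55 in GFP-RhoGDI2 cells, and with no filter it was called higher by 0.65 (adjusted p = 0.0388). Of 13 neutrophil markers, 10 were below the filter, S100A8, S100A9 and FCGR3B among them, and the mean log2 level over the list was 3.98 and 3.89 in GFP and 4.01 and 3.91 in GFP-RhoGDI2 cells. FPR1, a formyl peptide receptor gene, was the marker that rose, by 1.04 (limma, adjusted p = 0.00633). It read 4.71 and 4.58 in GFP and 5.85 and 5.51 in GFP-RhoGDI2 cells, so its GFP values lie around the filter level and the size of the rise is uncertain. Of the macrophage, lymphoid and stromal markers with a probe set, 8 of 9, 6 of 8 and 8 of 10 were below the filter level. Limma called 0 of the 5 that were tested, with 0 at an unadjusted p under 0.05. In these bulk arrays more cells that express a gene cannot be told apart from more RNA per cell.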

How the data were processed

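The deposited values are the authors' log2 expression for each probe set. According to the submitters' processing notes the authors used RMA; its software and version, and which arrays were normalized together, were not given in the sources used here. Array medians of 4.62 to 4.65 were nearly equal, so nothing was renormalized. The files hold no detection calls, and the number of arrays limits the precision.

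Of 54675 probe sets, 62 controls were left out; 41091 of the others name 1 gene (annotation of the platform, symbols updated by gene ID through RefSeq), 1801 several and 11721 none. limma 3.58.1 in R 4.3.3 (lmFit and eBayes) was fitted to the 27307 probe sets at or above the median mean, with preparation as a block, since the labels pair the arrays by preparation (A to B differences of the lines correlated at r = 0.264 across probe sets). Each fit has 1 residual degree of freedom, with 4.71 added by moderation (prior SD 0.101), so SEs rest largely on the pooled variance. With the block, an A to B shift shared by both lines does not enter the SEs, intervals or p-values. These reflect how far the difference between the lines changed from A to B. Separate cultures are not stated, so they speak only of these samples. Benjamini-Hochberg adjustment ran over all probe sets tested. A gene is its probe set with the highest mean (12123 genes tested), and log2 differences are GFP-RhoGDI2 minus GFP. The script was tested on simulated data.

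Members and lists were chosen with earlier results of these data known. Named are all member probe sets, called genes of each related list or else the one with the largest difference, and the 5 nearest profiles to CXCL1 and CXCL8; neighbours on chromosome 4, interleukin-1, TNF, NF-kappaB and AP-1 genes named beyond this were chosen after their values were seen. Promoters were aligned with Biopython 1.88. Alternatives are given in the closing section.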

Additional observations from a re-analysis of the deposited data

How the results depend on the processing

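The direction of all 5 tested member probe sets was kept under every alternative that could test them. In CXCL1, CXCL3 and both CXCL8 probe sets every adjusted p stayed under the threshold, the highest being 0.0135 for CXCL3 without the GFP-RhoGDI2 B array, and CXCL2 lost its call in that setting alone. With 1 array left out, which was fitted without the block and assumes that a lone array varies like the others, the differences ran from 3.46 to 3.70 for CXCL1, 2.17 to 2.77 for CXCL3, 0.94 to 1.37 for CXCL2, and 2.48 to 3.28 and 2.80 to 3.39 for CXCL8.

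The members' count of 4 genes and 5 probe sets was 2 and 3 with the filter at the upper quartile (7.036), where CXCL2 and CXCL3 fall out, and 2 genes without _s_at or _x_at probe sets, where CXCL8 has none left and CXCL2 falls below the filter. It was 3 genes of 3 tested with a gene's probe sets averaged, where CXCL2 falls below the filter, and 5 genes with no filter, CXCL6 being added. Across the array the counts moved more. Against 991 genes and 2085 probe sets, no replicate block gave 641 and 1284, the upper quartile 1876 and 3435, an intensity trend 2879 and 5721, a common median 1575 and 3395, averaged probe sets 2314 genes, and leaving out 1 array 215 to 421 genes and 422 to 909 probe sets; the cause was not tested beyond the change in genes or arrays entered. Low signal limits CXCL5, CXCL6 and the GFP level of CXCL3.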
